A study of Bos taurus with 6 samples.

Results

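A set of 10 genes of fatty acid and lipid droplet metabolism was followed in single bovine morulae: FASN, SCD, ELOVL5, CPT1A, CPT2, ACADM, DGAT1, DGAT2, PLIN2 and PLIN3. They were taken by symbol, and all 10 of 10 were found, each as 1 row in each of the 6 libraries, among 13185 gene symbols kept. The libraries came from polyA RNA of 1 embryo each. The embryos were produced by in vitro fertilization and grown to day 6 in mSOF medium with bovine serum albumin under 5% oxygen. At 72 hpi, with 8 to 16 cells, 3 were placed in 0.1% DMSO (Control) and 3 in 20 µM FIDAS-5 (MAT2A-inhibited), until 144 hpi. FIDAS-5 inhibits MAT2A, the enzyme that makes the methyl donor S-adenosylmethionine, and DMSO is its solvent. Whether the FIDAS-5 medium also held DMSO is not in the labels. Nor is it stated whether embryos of a group were cultured apart, and the p-values below thus reflect the spread among these 6 embryos alone. A whole embryo is a mixture of cells, and fewer cells of a type cannot be told apart from less RNA per cell.

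Cells store fatty acids as triacylglycerol in lipid droplets, whose surface is covered by phospholipid and by perilipins. Fatty acids are made in the cytosol, lengthened and desaturated in the endoplasmic reticulum, and joined to diacylglycerol for storage. To be burned they pass into mitochondria as carnitine esters and are shortened by β-oxidation. Bovine oocytes and early embryos are known for their abundant lipid droplets.

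Each library held 46500000 to 59900000 fragments, as estimated from the deposited bounds. The 8 morula and blastomere markers summed to 1160 to 2107 FPKM (fragments per kilobase of transcript, scaled to the mapped fragments of the library) in Control and 976 to 1381 FPKM in MAT2A-inhibited embryos. Of these POU5F1, DPPA3 and SOX2 were at 27.6 FPKM or more in every embryo, while NANOG ran from 1.16 to 20.3 FPKM, CDX2 from 0.188 to 2.77 FPKM and GATA3 from 6.503 to 83.4 FPKM. Of 12 cumulus and granulosa markers 7 reached 1 FPKM in some library, PTX3 was listed at 0 in all, and the summed level was 61.7 to 129 FPKM in Control and 46.0 to 83.7 FPKM in MAT2A-inhibited embryos, most of it SERPINE2. Of 5 adipocyte markers with a row 2 reached 1 FPKM, with a sum of at most 5.81 FPKM in any embryo. Of 4 hepatocyte markers ALB and FABP1 were listed at 0 in all 6, CPS1 was at 5.48 FPKM in Control 2 and listed at 0 elsewhere, and APOA1 was at 27.1 FPKM in Control 3 and at 0.136 to 3.44 FPKM elsewhere. The 4 sperm markers summed to 2.53 to 4.79 FPKM in Control and 5.13 to 11.45 FPKM in MAT2A-inhibited embryos. Of 3 blood markers HBA was at 63.1 to 132 FPKM in the 6 embryos. HBB was at 1.72 FPKM in MAT2A-inhibited 2, at 0.151 FPKM in MAT2A-inhibited 3 and listed at 0 elsewhere. PTPRC, a marker of white blood cells, was listed at 0 in all but Control 2 (0.00464 FPKM). The libraries MAT2A-inhibited 2 and 3 held the Y-linked transcripts DDX3Y (14.96 and 7.94 FPKM) and EIF1AY (38.2 and 107 FPKM), which were listed at 0 in the other 4. Control 2 also stood apart: the epithelial keratin KRT8 was at 4.49 FPKM there and at 38.7 to 400.5 FPKM elsewhere. DCN and LUM, of the cumulus and granulosa markers, were at 11.002 and 4.81 FPKM there and at no more than 0.739 FPKM elsewhere. Not all markers of that list did so. COL1A2 was lowest in Control 2, at 0.231 FPKM against 0.529 to 4.29 FPKM elsewhere. SERPINE2 was at 92.9 FPKM there, within its range of 41.0 to 122 FPKM elsewhere.

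PLIN2 was the most abundant of the 10 transcripts and FASN the least abundant in all 6 embryos. Mean levels over the 6 embryos ran from 191 FPKM for PLIN2 through 52.4 for ACADM, 26.6 for ELOVL5, 15.7 for PLIN3 and 11.7 for CPT1A. Below these came CPT2 at 6.69, SCD at 6.45, DGAT2 at 4.51, DGAT1 at 4.03 and FASN at 1.42 FPKM. FPKM is per transcript length, which allows a rough comparison of levels between genes. Coverage along the transcripts was not examined, and the ends of some genes differed between libraries. PLIN2 was above ACADM by 1.75 to 5.08 times within each embryo, and their ranges did not overlap. For every other pair of neighbours in this order the ranges overlapped. ELOVL5 was above PLIN3, CPT1A above CPT2 and DGAT1 above FASN in 6 of 6 embryos. PLIN3 and CPT1A, CPT2 and SCD, and DGAT2 and DGAT1 kept their order in only 4 of 6. Set against all 7319 genes tested, PLIN2 ranked above 90.2% by mean level, ACADM above 76.3% and FASN above 5.36%.

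**Figure D1:**
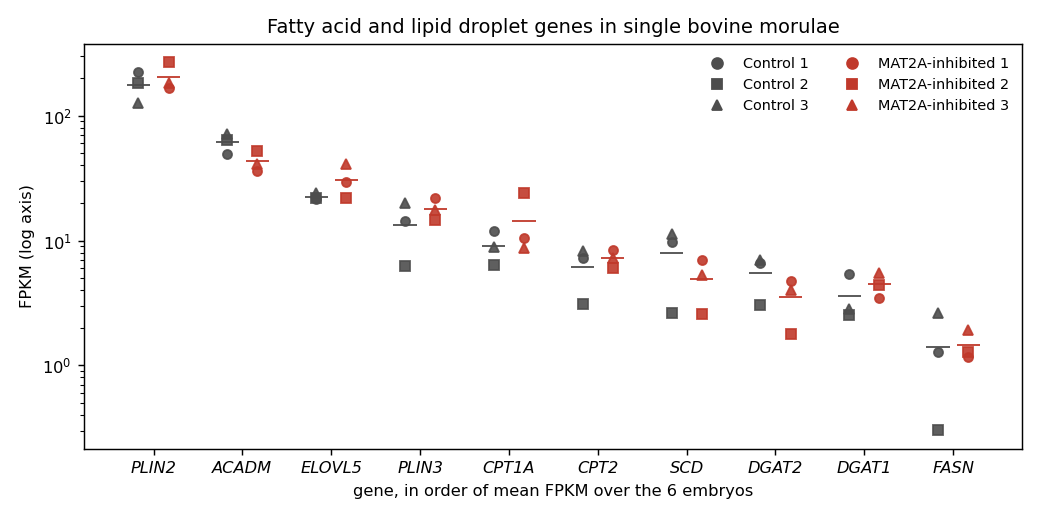
FPKM of the 10 genes (log axis) in each embryo, with genes in order of their mean level; grey marks are the 3 Control embryos, red marks the 3 MAT2A-inhibited embryos, symbols give the replicate number and short lines the group means. All values of PLIN2 lie above those of every other gene. FASN is the lowest gene within each embryo, though its range overlaps that of DGAT1. The 2 groups overlap for each of the 10 genes.

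None of the 10 transcripts was called different between the groups by the test used, with 3 embryos per group. Each difference is the mean log2(FPKM + 1) of treated embryos minus that of controls, a measure that shrinks the change of weakly expressed genes, and was tested with limma across all 7319 genes that reached 1 FPKM in at least 3 libraries. All 10 genes passed this filter. Of the 10, 0 passed an adjusted p of 0.05, where 0.041% of all genes tested did, and 0 had an unadjusted p below 0.05, where 6.64% of all genes did. The values of the 2 groups overlapped for all 10, while they did not overlap for 13.4% of all genes. Differences were above 0 for 7 of the 10 and below 0 for 3, with a median of 0.24. Over all genes tested the median was 0.04 and 54.2% were above 0. The limma adjusted p ran from 0.753 for ACADM to 0.944 for FASN. The SE of these differences had a median of 0.40, against 0.34 for all genes tested.

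**Figure D2:**
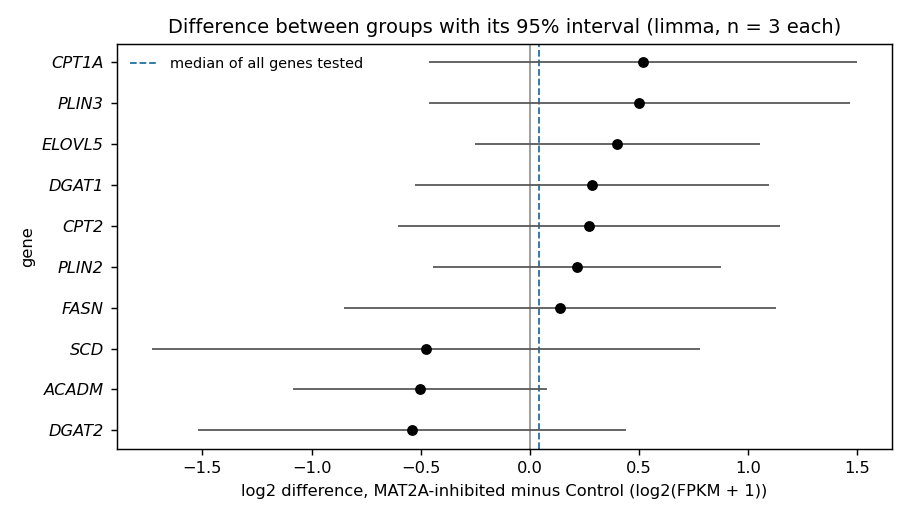
Log2 difference (MAT2A-inhibited minus Control, in log2(FPKM + 1)) of each of the 10 genes, with its 95% interval from limma (n = 3 embryos per group); the dashed line is the median of all genes tested, 0.04. Every interval includes 0, with ACADM closest to leaving it out, from -1.08 to 0.078.

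The perilipins coat the droplet. PLIN2, the main coat protein of cells other than adipocytes (bosTau8 chromosome 8, 25129178 to 25137854), measured 224, 183 and 125 FPKM in Control 1 to 3 and 167, 267 and 181 FPKM in MAT2A-inhibited 1 to 3. The highest value was in a treated embryo and the lowest in a control, with the other 4 mixed between them. The group means were 178 ± 49.6 and 205 ± 54.4 FPKM (SD, n = 3 each, exact two-sided permutation p = 0.7). The log2 difference was 0.22 ± 0.28 (SE), with a 95% interval from -0.44 to 0.88. The difference was -0.014 without Control 3 and -0.052 without the 2 libraries with Y-linked transcripts, MAT2A-inhibited 2 and 3. With only 1 of these 2 left out it stayed above 0, at 0.009 without MAT2A-inhibited 2 and 0.29 without MAT2A-inhibited 3. PLIN2 of MAT2A-inhibited 3 was deposited at 181 FPKM with bounds of 160 to 167 FPKM, so that value lies outside its own bounds. In MAT2A-inhibited 1 the row reached to position 25143159, beyond the end it had in the other 5 libraries.

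PLIN3, a perilipin that moves between the cytosol and growing droplets (chromosome 7, 20503792 to 20524337), measured 14.2, 6.28 and 19.8 FPKM in the control embryos. Treated embryos were at 21.7, 14.6 and 17.4 FPKM, all 3 above the control mean of 13.4 ± 6.81. The log2 difference was 0.50 ± 0.41 (limma adjusted p = 0.815). It was 0.072 without Control 2, the embryo in which PLIN3 was lowest. PLIN2 made up 94.0, 96.7 and 86.4% of the summed FPKM of the pair in controls and 88.5, 94.8 and 91.2% in treated embryos. The mean share was 92.4 ± 5.37% against 91.5 ± 3.18% (SD, n = 3 each, exact permutation p = 0.9). PLIN1, the perilipin of adipocytes, reached 1.15 FPKM in Control 1 and at most 0.156 FPKM elsewhere. PLIN5, the perilipin of oxidative tissue, was listed at 0 in all 6 embryos.

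DGAT1 and DGAT2 are unrelated enzymes that both join the last fatty acid to triacylglycerol. DGAT1 (chromosome 14, 1795425 to 1804838) was at 5.43, 2.53 and 2.84 FPKM in the control embryos and 3.50, 4.39 and 5.495 FPKM in treated embryos. In MAT2A-inhibited 3, where DGAT1 was highest, its row began at position 1794626, before the start it had in the other libraries. DGAT2 (chromosome 15, 55940757 to 55973229) was at 6.64, 3.02 and 6.93 FPKM in the control embryos and 4.70, 1.77 and 4.03 FPKM in treated embryos. DGAT2 was lowest in replicate 2 of each group, and all 3 treated values were below the control mean of 5.53 ± 2.18 FPKM. Their log2 differences had opposite signs, 0.28 ± 0.35 for DGAT1 and -0.54 ± 0.42 for DGAT2 (SE, limma adjusted p = 0.857 and 0.814). The intervals were -0.53 to 1.10 and -1.52 to 0.44. Without the 2 libraries with Y-linked transcripts the differences were 0.020 and -0.13, and without Control 2 that of DGAT2 was -0.86.

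The DGAT1 share of the pair showed the widest gap of the 4 shares compared. It was 45.0, 45.6 and 29.1% in controls and 42.7, 71.3 and 57.7% in treated embryos. Only MAT2A-inhibited 2 and 3 exceeded every control, and these are the 2 libraries with Y-linked transcripts. The means were 39.9 ± 9.36% and 57.2 ± 14.3% (SD, n = 3 each), a difference of 17.3 percentage points (exact permutation p = 0.3, adjusted over 4 shares p = 0.6). The difference was 10.3 points without MAT2A-inhibited 2 and 2.79 points when the treated group held only MAT2A-inhibited 1. The smallest p that 3 against 3 can give is 0.1.

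**Figure D3:**
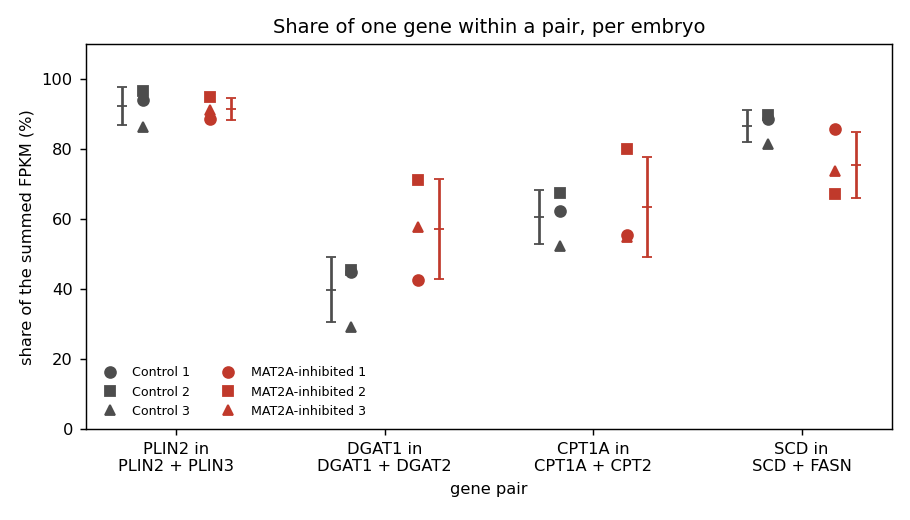
Share of 1 gene in the summed FPKM of a pair (percent), per embryo, for PLIN2 and PLIN3, DGAT1 and DGAT2, CPT1A and CPT2, and SCD and FASN; grey marks are Control, red marks MAT2A-inhibited embryos, and bars beside them give the mean and SD (n = 3). The groups overlap in every pair, and the SD is larger in treated embryos than in controls for DGAT1 (14.3 against 9.36), CPT1A (14.3 against 7.65) and SCD (9.39 against 4.54) and smaller for PLIN2 (3.18 against 5.37).

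FASN, the synthase that builds palmitate (chromosome 19, 51384922 to 51403614), was at 1.28, 0.301 and 2.61 FPKM in the control embryos and 1.17, 1.27 and 1.90 FPKM in treated embryos. Its control values spanned the treated ones on both sides. The control CV (SD over mean) was 82.9%, the highest of the 10 genes, against a median of 29.6% for all genes tested, and the treated CV was 27.5%. The means were 1.399 ± 1.16 and 1.45 ± 0.398 FPKM, and the log2 difference was 0.14 ± 0.43. It was -0.24 without Control 2 and 0.49 without Control 3.

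SCD, the desaturase that turns stearate into oleate (chromosome 26, 21137945 to 21148318), measured 9.81, 2.64 and 11.4 FPKM in the control embryos. In treated embryos it was at 6.95, 2.60 and 5.32 FPKM, again with replicate 2 lowest. All 3 treated values were below the control mean of 7.94 ± 4.66 FPKM, yet 1 of the 3 controls was lower than 2 of them. The log2 difference was -0.48 ± 0.54 with an interval from -1.73 to 0.78, the widest of the 10. It was -1.03 without Control 2 and 0.015 without the 2 libraries with Y-linked transcripts. SCD was 88.4, 89.8 and 81.3% of the summed FPKM of SCD and FASN in controls and 85.6, 67.1 and 73.7% in treated embryos (exact permutation p = 0.2, adjusted over 4 shares p = 0.6). The mean shares were 86.5 ± 4.54% and 75.5 ± 9.39%, a difference of -11.04 percentage points. The difference was -6.86 points without MAT2A-inhibited 2 and -0.869 points without the 2 libraries with Y-linked transcripts. The second desaturase of this type, SCD5, was at most 1.004 FPKM.

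ELOVL5, which lengthens polyunsaturated fatty acids (chromosome 23, 25155735 to 25228997), had the tightest controls of the 10 genes. They were at 21.4, 21.8 and 23.9 FPKM, a CV of 5.98%, and the treated embryos were at 29.2, 22.0 and 41.2 FPKM, a CV of 31.4%. MAT2A-inhibited 1 and 3 lay above all controls and MAT2A-inhibited 2 lay within them. The log2 difference was 0.40 ± 0.28 (SE, interval -0.25 to 1.06, limma adjusted p = 0.802), and 0.18 without MAT2A-inhibited 3. ELOVL6, which lengthens saturated and monounsaturated chains, was the most abundant elongase, at 146 ± 18.1 FPKM in the control embryos and 152 ± 13.5 FPKM in treated embryos.

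The carnitine shuttle feeds mitochondria. CPT1A, its entry enzyme on the outer membrane (chromosome 29, 46820298 to 46880905), was at 11.9, 6.41 and 8.96 FPKM in the control embryos and 10.5, 24.0 and 8.71 FPKM in treated embryos. The value of MAT2A-inhibited 2 was over all others, while the other 2 treated embryos lay within the control range. The log2 difference was 0.52 ± 0.42, and 0.11 without that embryo. Its deposited bounds were 21.4 to 23.9 FPKM, so the value also lies just outside them. CPT2, the inner-membrane partner (chromosome 3, 93601358 to 93625434), was at 7.21, 3.11 and 8.17 FPKM in the control embryos and 8.43, 6.04 and 7.20 FPKM in treated embryos. Its difference of 0.27 ± 0.38 rested on Control 2, without which it was -0.088. CPT1A made up 60.6 ± 7.65% of the pair in controls and 63.4 ± 14.3% in treated embryos (n = 3 each, exact permutation p = 0.8). CPT1B, the muscle form, was at 0.22, 0.0825 and 0.128 FPKM in the control embryos and 0.425, 1.66 and 3.53 FPKM in treated embryos, too low to enter the test.

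ACADM, the medium-chain dehydrogenase of β-oxidation (chromosome 3, 69344157 to 69382504), had the smallest p of the 10. It was at 49.1, 64.2 and 71.6 FPKM in the control embryos and 36.1, 52.6 and 40.9 FPKM in treated embryos. Only MAT2A-inhibited 2 reached into the control range, above Control 1. The means were 61.7 ± 11.5 and 43.2 ± 8.49 FPKM (SD, n = 3 each, exact permutation p = 0.2), or 0.701 times the control level. The log2 difference was -0.50 ± 0.25 (SE, limma adjusted p = 0.753). Its sign held under every alternative tried, as did those of CPT1A, DGAT1, DGAT2, ELOVL5 and PLIN3 wherever they were tested. Some of the alternatives, such as other filters on level, could not change a sign. The ACADM difference stayed below 0, from -0.74 in the fit with 1 treated embryo left to -0.36. The value of MAT2A-inhibited 2 exceeded its deposited bounds of 46.3 to 50.0 FPKM, and the midpoints of all bounds gave -0.55. Of its relatives, ACADS, ACADL and ACADVL had differences of -0.36, 0.10 and -0.034 and means of 2.13, 2.13 and 6.52 FPKM. ACADSB, ACAD9, ACAD10 and ACAD11 had differences of 0.50, 0.77, -0.43 and -0.52, and none was called. The groups did not overlap for ACAD9 and ACAD11, nor for 13.4% of all genes tested.

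Embryos differed from one another across these genes. Among controls, Control 2 was lowest for 7 of the 10 (DGAT1, DGAT2, PLIN3, FASN, SCD, CPT1A and CPT2), and for 40.4% of all genes tested. Control 3 was highest for 7 of the 10 and for 37.8% of all genes. The median deviation of the 10 genes from the control mean was -0.52 in Control 2 on the log2 scale, against -0.04 for all genes tested. It was 0.29 in each of the other 2 controls. In MAT2A-inhibited 1 to 3 it was 0.018, 0.051 and 0.17. Low KRT8 and the DCN and LUM transcripts of Control 2 go along with these low values, and their part in them was not tested. COL1A2, of the same marker list as DCN and LUM, was lowest in Control 2.

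**Figure D4:**
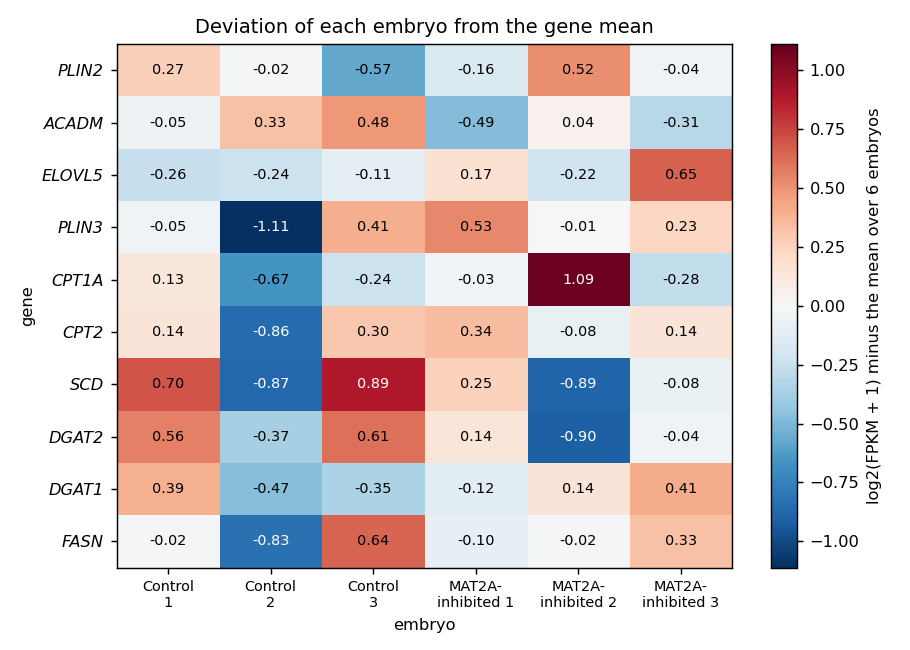
Deviation of each embryo from the mean over 6 embryos, in log2(FPKM + 1), for the 10 genes in order of level (rows) and the 6 embryos (columns); red is above and blue below the mean. Control 2 is blue for every gene except ACADM, down to -1.11 for PLIN3, and CPT1A stands out in MAT2A-inhibited 2 at 1.09.

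Around the 10 genes, 12 lists of lipid roles held 113 tested genes, of which 103 are not among the 10. By limma 0 of the 113 passed in either direction, against 0.041% of all genes tested. An unadjusted limma p below 0.05 was found for 6 (5.31%), against 6.64% of all genes. For 12 (10.6%) the groups did not overlap, against 13.4% of all genes. Differences above 0 were found for 64 and below 0 for 49, with a median of 0.06. Over all genes tested 54.2% were above 0, with a median of 0.04. Each list holds only 4 to 19 tested genes and none was tested as a set, so the counts of signs below are descriptions. The 2 most abundant other genes of each list are given below.

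In fatty acid synthesis 6 of 7 tested genes had a difference above 0, with a median of 0.32. The list also holds the mitochondrial enzymes MCAT, OXSM and MECR, with differences of 0.32, 0.36 and 0.79. The others were at 0.34 for ACLY, 0.17 for SLC25A1, 0.14 for FASN and -0.22 for ACACA. ACLY, which supplies cytosolic acetyl-CoA, was at 21.2, 13.1 and 186 FPKM in the control embryos and 27.9, 26.4 and 149 FPKM in treated embryos, high in replicate 3 of each group. The citrate carrier SLC25A1 was at 9.73 ± 4.02 and 11.98 ± 6.598 FPKM. Elongation had 6 of 9 above 0 (median 0.04), with HSD17B12, the ketoacyl reductase of the cycle, at 39.9 ± 13.7 and 49.0 ± 14.2 FPKM. Desaturation had 1 of 4 above 0 (median -0.24), with the electron carrier CYB5A at 8.05 ± 3.17 and 5.77 ± 3.25 FPKM and its reductase CYB5R3 at 6.07 ± 1.65 and 6.30 ± 1.26 FPKM.

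Lipid-binding proteins were the most abundant transcripts of the lists. FABP3, which carries fatty acids in the cytosol, was at 3147 ± 304 FPKM in the control embryos and 3530 ± 156 FPKM in treated embryos, and DBI, which binds acyl-CoA, at 2641 ± 991 and 2326 ± 228 FPKM. FABP5 was at 25.1 ± 15.7 and 16.0 ± 0.872 FPKM, and ACSL3, an acyl-CoA synthetase of droplets, at 95.4 ± 37.6 and 77.7 ± 7.32 FPKM. Uptake and binding had 3 of 6 tested genes above 0 (median -0.13), and activation 6 of 11 (median 0.13).

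Oxidation genes were split. In the carnitine shuttle 6 of 7 were above 0 (median 0.27), with the carrier SLC25A20 at 19.9 ± 6.12 and 22.0 ± 4.38 FPKM and TMLHE, of carnitine synthesis, at 12.2 ± 1.97 and 8.604 ± 4.62 FPKM. Mitochondrial β-oxidation had 9 of 19 above 0 (median -0.013). ETFB and ETFA, which take electrons from ACADM and its relatives, were at 279 ± 13.9 and 287 ± 40.9 FPKM and at 146 ± 23.9 and 118 ± 17.6 FPKM. Peroxisomal genes had 5 of 10 above 0 (median -0.14), with SCP2 at 111 ± 56.8 and 66.3 ± 14.7 FPKM and HSD17B4 at 38.9 ± 12.3 and 31.9 ± 13.5 FPKM.

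In triacylglycerol synthesis 8 of 11 were above 0 (median 0.28). SOAT1, which makes cholesteryl esters for droplets, was at 403 ± 75.7 and 386 ± 76.3 FPKM and AGPAT5, an acyltransferase, at 99.1 ± 28.0 and 138 ± 34.5 FPKM. Droplet coat and assembly had 6 of 10 above 0 (median 0.10), with the droplet protein HSD17B11 at 213 ± 25.0 and 173 ± 85.1 FPKM and the GTPase RAB18 at 206 ± 75.1 and 158 ± 52.8 FPKM. Lipolysis had 1 of 5 above 0 (median -0.055), with PNPLA4 at 27.4 ± 2.54 and 23.3 ± 3.91 FPKM and ABHD6, a monoacylglycerol lipase, at 9.60 ± 3.57 and 9.47 ± 4.18 FPKM. PNPLA2, the main triacylglycerol lipase of droplets, was at most 0.507 FPKM, and was not tested. Regulators had 7 of 14 above 0 (median 0.02), with PRKAG1, a subunit of the AMP-activated kinase, at 27.3 ± 8.98 and 17.4 ± 3.36 FPKM and the protease MBTPS1 at 20.9 ± 11.4 and 15.3 ± 5.78 FPKM.

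**Figure D5:**
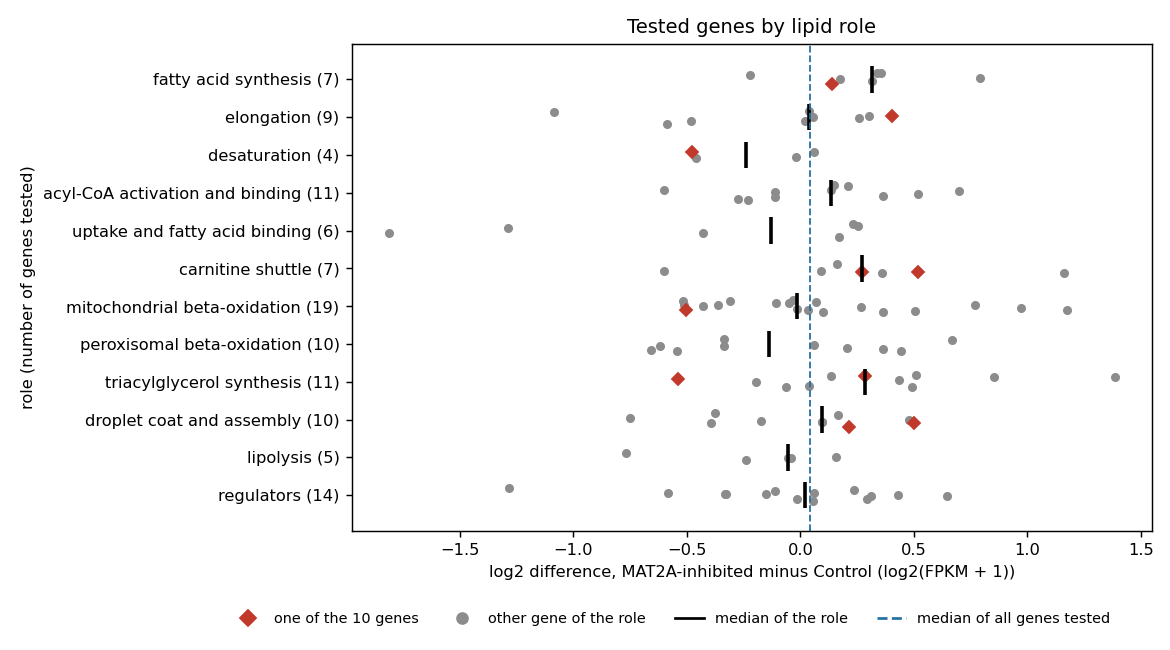
Log2 difference (MAT2A-inhibited minus Control, log2(FPKM + 1)) of the 113 tested genes by lipid role; red diamonds are the 10 genes, grey points the others, black bars the role medians and the dashed line the median of all genes tested. Role medians lie between -0.24 for desaturation and 0.32 for synthesis, and each role has genes on both sides of 0.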

How the data were processed

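The values are FPKM with bounds, deposited by the authors in 1 table for each library. TopHat2 2.0.14, Cufflinks 2.2.1 and the build bosTau8 are named in the submitters' processing notes. The annotation, the settings and any scaling between libraries are not stated there. Identifiers differ between tables, so each library was assembled separately, which can change a gene's ends between libraries. Rows of 1 symbol were summed. Symbols sharing a merged locus or without status OK were left out. Depth was estimated as the value that best turned the bounds of unannotated loci of 100 to 300 bases into whole fragments. At that value 99.8% to 99.9% of the bounds were whole (tolerance 0.05). The same bounds gave the depth, so this share is no separate check, and a multiple of it would also make them whole. Counts per gene were not recovered. Positions were made 1-based, since 3 loci per table start at 0. Over all 60 values of the 10 genes, 3 lie outside their own bounds, so bounds served as no error.

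The test took the 7319 genes that reached 1 FPKM in 3 or more of the 6 libraries. It was limma 3.58.1 (R 4.3.3) applied to log2(FPKM + 1), two-sided, with a mean-variance trend, no block and Benjamini-Hochberg adjustment at 0.05. Shares and single genes had exact two-sided permutation tests.

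The 10 genes and all lists were chosen with earlier results of these data known. All 10 are named, and of each role list the 2 other tested genes highest in mean FPKM. Relatives of the 10 genes, PNPLA2 and the single markers were named after their values were seen. Alternatives covered scaling, pseudocount, filters, model, rows per symbol, genes at 0 and libraries left out.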

Additional observations from a re-analysis of the deposited data

How the results depend on the processing

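Of 187 differences of the 10 genes recomputed under 19 alternatives, 181 kept their sign and 0 were called; the smallest limma adjusted p was 0.557. Some alternatives could not move a difference. The filters, the fit without a trend, the replicate number as a block and the highest row per symbol returned the main value. Signs under these were fixed beforehand, so the count of 181 overstates how far the signs were tried. The 6 that changed sign came from leaving out libraries. Leaving out 1 embryo at a time gave -0.24 to 0.49 for FASN, -0.088 to 0.49 for CPT2 and -0.014 to 0.40 for PLIN2. Without the 2 libraries with Y-linked transcripts PLIN2 was at -0.052, FASN at -0.026 and SCD at 0.015. That fit leaves 1 treated embryo, assumed to vary like the others. Leaving out 1 embryo at a time, the share difference ranged from -3.86 to 1.31 percentage points for PLIN2 and from -5.46 to 7.10 for CPT1A. Without the 2 libraries with Y-linked transcripts these were -3.90 and -5.08. The cause was not tested.

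Of all genes, 3 passed. The count was 1 with no filter on low values, 1 with a mean of at least 5 FPKM, 5 with array weights, 0 without genes at 0, 0 without the Y-linked libraries, and 0 to 8 when 1 embryo was left out. Midpoints of the bounds, an alternative chosen after seeing the data, gave 1. The mean filter left DGAT1, DGAT2 and FASN untested. With the replicate number as a block (replicate block) 1 gene passed, and the smallest adjusted p of the 10 genes was 0.625. The labels name no pairing by replicate number, so the main test took none. Deviations from the group means had r = 0.0456, 0.103 and 0.191 between same-numbered embryos. Between embryos of different number r ran from -0.212 to 0.102. The 7319 genes behind each r are not independent, and these values cannot decide whether the numbers are pairs.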

Other observations

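FASN followed the keratin KRT8 from embryo to embryo, a likeness noticed after the values were seen. KRT8, a marker of the outer epithelium that becomes trophectoderm, was at 81.4, 4.49 and 400.5 FPKM in Control 1 to 3 and at 38.7, 109 and 230 FPKM in MAT2A-inhibited 1 to 3. Of the other morula and blastomere markers, only KRT18 and GATA3 were also lowest in Control 2 and highest in Control 3. CDX2 was highest in Control 3 (2.77 FPKM) but lowest in MAT2A-inhibited 2 (0.188 FPKM), where FASN was at 1.27 FPKM. FASN was lowest where KRT8 was lowest, in Control 2, and highest where KRT8 was highest, in Control 3. Over the 6 embryos, on the log2(FPKM + 1) scale, Pearson's r was 0.98 and Spearman's rho 0.943. These describe the values that drew attention to KRT8, so no p is given for them. Without Control 2 and Control 3, the embryos farthest from the median of KRT8, r was 0.895 over 4 embryos. These are part of the same values, so this is no separate check. Among them FASN was at 1.90 FPKM in MAT2A-inhibited 3 and at 1.17 to 1.28 FPKM in the others. How many of all genes tested have as high an r with KRT8 was not examined. With 3 embryos per group no value within a group is given. For the other 9 genes r ran from -0.214 for PLIN2 to 0.792 for CPT2. Without Control 2 and Control 3 the r of CPT2 became -0.557 and that of PLIN3 went from 0.783 to -0.444. Of all 7319 genes tested, Control 2 was the lowest of the 6 embryos for 26.7% and Control 3 the highest for 18.0%.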
